A study of Mus musculus with 20 samples.

Results

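The mouse genes Cyp2b9 and Cyp2b10 encode cytochrome P450 enzymes of subfamily 2B. They were taken from a cDNA array of mouse prostate as the elements whose only gene symbol in the array annotation was Cyp2b9 or Cyp2b10, which gave 2 elements, 1 for each gene, of 11552 on the array. Both genes were chosen by their log2 ratios in these same 20 pools, which had differed widely between strains, so the strain differences below are given as a description, with no test. Prostates of male mice of 5 inbred strains, 8 to 9 weeks old and with no treatment named, were compared: C57BL/6J, 129X1/SvJ, FVB/NJ, BALB/c (substrain BALB/cAnCrl in the series design) and DBA/2 (DBA/2NCrl). Each strain had 4 pools, each pool held RNA of 3 mice, with equal amounts from the dorsal, lateral, ventral and anterior lobe, and each pool was hybridised once, so that 12 mice stood behind every strain and 60 behind the series. Amplified RNA of the pool was set against a common reference mixed from all samples, with the pool in Cy3 on 2 arrays of each strain and in Cy5 on the other 2. C57BL/6J, 129X1/SvJ and FVB/NJ came from the same supplier and BALB/c and DBA/2 from another.

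Cytochromes P450 of subfamily 2B are haem enzymes of the endoplasmic reticulum that oxidise lipophilic compounds, with electrons passed on by cytochrome P450 reductase. Enzymes of subfamily 2B hydroxylate drugs, other foreign compounds and steroids, testosterone among them. In mouse liver Cyp2b10 is the textbook target of phenobarbital through the constitutive androstane receptor, encoded by Nr1i3, and Cyp2b9 is known for higher expression in females than in males.

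The promoters of the genes are shown because the 2 elements moved together over the strains and because the family holds close copies. Both lie on the plus strand of chromosome 7 in GRCm38.p6, at chr7:26173159-26173458 for Cyp2b9 and at chr7:25897408-25897707 for Cyp2b10. Each stretch (RefSeq) runs from 250 bases before the annotated start of the gene to 50 bases after it, and capitals mark the 5 runs of at least 10 bases that are identical in the aligned pair.
Cyp2b9: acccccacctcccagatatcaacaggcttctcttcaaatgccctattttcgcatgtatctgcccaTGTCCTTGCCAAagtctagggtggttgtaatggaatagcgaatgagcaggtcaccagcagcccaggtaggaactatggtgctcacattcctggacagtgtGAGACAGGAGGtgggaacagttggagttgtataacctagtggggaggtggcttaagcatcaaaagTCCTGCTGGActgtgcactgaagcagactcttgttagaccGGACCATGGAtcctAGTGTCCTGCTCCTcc
Cyp2b10: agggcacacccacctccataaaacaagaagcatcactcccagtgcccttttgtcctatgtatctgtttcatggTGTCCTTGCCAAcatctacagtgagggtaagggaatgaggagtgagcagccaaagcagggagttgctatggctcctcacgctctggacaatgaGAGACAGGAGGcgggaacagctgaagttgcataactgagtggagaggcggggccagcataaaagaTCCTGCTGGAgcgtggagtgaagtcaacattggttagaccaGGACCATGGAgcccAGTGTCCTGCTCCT

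In a global alignment 220 of 289 paired bases were identical, or 76.1%. The 5 runs held 57 bases, and the longest, of 14 bases, began 34 bases after the start in Cyp2b9 and 36 bases after it in Cyp2b10. The promoter of Cyp2b9 was closer to that of Cyp2b13, the only protein-coding P450 gene between the members on the chromosome, beside 3 pseudogenes: 298 of 300 bases were identical, and the substitutions from Cyp2b9 to Cyp2b13, counted from the 5′ end of the stretch, were T48C and C104T. Cyp2b13 was not analysed here. Clones of such close copies can bind RNA of each other, so how much of each signal came from another 2B transcript was not tested and cannot be told from the ratios.

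Motifs were searched on both strands as exact letters. AGGTCA, the core motif of many nuclear receptors, occurred in the Cyp2b9 stretch, beginning at position -138 from the start, and not in that of Cyp2b10. It was found in 16.3% of 32851 mouse promoters of the same length. CATAAA, a variant of the TATA box, occurred in Cyp2b10, at positions -28 and -234, and in 11.9% of all promoters. CCAAT occurred in Cyp2b10, on the minus strand at position 10 with the start base itself counted, and in 37.4% of all promoters. TATAAA, found in 13.6% of promoters, was in neither stretch. None of these matches was tested for binding.

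The deposited values are log2 ratios of pool over reference, so 0 means the level of the mixed reference and 1 a level 2-fold above it. Over the series 11159 elements had enough values to be tested, and both members had a value on all 20 arrays. The 129X1/SvJ arrays had the widest spread. The median absolute deviation of their log2 ratios was 0.292, 0.299, 0.319 and 0.437 in pools 1 to 4. On the arrays of the other strains it was 0.157 to 0.291. Array weights from limma were 0.405, 0.569, 0.501 and 0.161 for these 129X1/SvJ pools, and 0.622 or more for all others. Pool 4 of 129X1/SvJ thus stood apart most. The members' means in 129X1/SvJ, their spans and the correlation of their log2 ratios are therefore also given without that pool. The other values include it unless said otherwise. Leaving it out does not remove the wider spread of the 129X1/SvJ arrays that remain. Tissue is bulk prostate, in which fewer expressing cells and less RNA per cell cannot be told apart.

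Cyp2b9 was highest in FVB/NJ and lowest in 129X1/SvJ. In pools 1 to 4 of FVB/NJ its log2 ratios were 0.69, 1.65, 1.06 and 0.50. In DBA/2 they were 0.27, 0.49, 0.66 and 0.32, and in C57BL/6J 0.14, 0.80, 0.57 and -0.15. Pools of these 3 strains overlapped each other, and all but 1 of the 12 lay above the reference. In BALB/c the log2 ratios were -1.31, -0.92, -0.67 and -1.23, and in 129X1/SvJ -3.35, -3.01, -2.43 and -0.95. Every pool of these last strains lay below every pool of FVB/NJ, DBA/2 and C57BL/6J. The fourth 129X1/SvJ pool fell among the BALB/c pools, while the other 3 lay below all other pools.

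The mean log2 ratios of Cyp2b9 were 0.97 ± 0.51 in FVB/NJ, 0.43 ± 0.18 in DBA/2, 0.34 ± 0.43 in C57BL/6J, -1.03 ± 0.29 in BALB/c and -2.44 ± 1.06 in 129X1/SvJ (SD, n = 4 pools each). FVB/NJ and 129X1/SvJ thus differed by 3.41 on the log2 scale, or 10.6-fold. DBA/2 and C57BL/6J, neighbours in this order, differed by 0.09, less than the SD of either strain. Without the fourth pool the 129X1/SvJ mean was -2.93 ± 0.47 (n = 3) and the distance from FVB/NJ 15.0-fold.

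Cyp2b10 took the same order of strains, with less spread between pools. Its log2 ratios in pools 1 to 4 were 0.85, 1.10, 0.71 and 0.70 in FVB/NJ. They were 0.42, 0.50, 0.49 and 0.57 in DBA/2, and 0.02, 0.08, 0.22 and 0.24 in C57BL/6J. These 3 strains formed steps that did not overlap, although the gap between the lowest FVB/NJ pool and the highest DBA/2 pool was 0.13. The log2 ratios were -1.09, -0.72, -1.24 and -0.53 in BALB/c, and -2.16, -2.43, -2.20 and -1.39 in 129X1/SvJ. All 129X1/SvJ pools were below all BALB/c pools, by 0.15 between the closest.

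The mean log2 ratios of Cyp2b10 were 0.84 ± 0.18 in FVB/NJ, 0.49 ± 0.06 in DBA/2, 0.14 ± 0.10 in C57BL/6J, -0.89 ± 0.33 in BALB/c and -2.05 ± 0.46 in 129X1/SvJ (SD, n = 4 pools each). From the highest to the lowest strain this was 2.89 on the log2 scale, or 7.39-fold, and 3.11 on the log2 scale without the fourth 129X1/SvJ pool, when the mean of that strain was -2.27 ± 0.15 (n = 3). The pooled SD within strains was 0.27 for Cyp2b10 and 0.58 for Cyp2b9. By the distance between the highest and lowest strain mean, Cyp2b9 ranked 22 and Cyp2b10 ranked 37 among all elements tested.

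**Figure D1:**
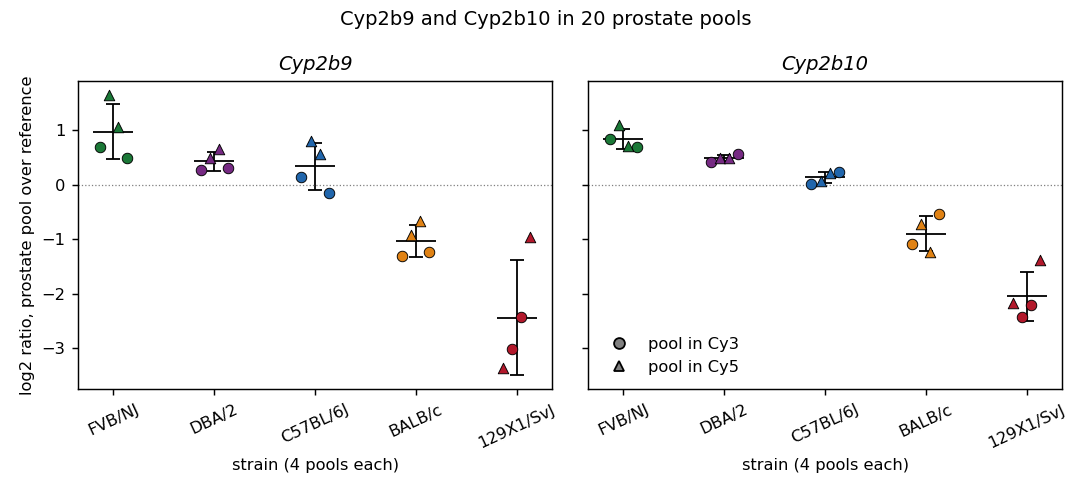
Log2 ratio of pool over reference (y axis) of Cyp2b9 and Cyp2b10 in the 4 pools of each of 5 strains (x axis). Circles are pools labelled with Cy3 and triangles pools labelled with Cy5; the long bars are strain means and the whiskers 1 SD, and the fourth 129X1/SvJ pool is the highest red triangle in each panel (-0.95 and -1.39).

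Of the 10 pairs of strains, 6 had no overlap between their pools for Cyp2b9 and 10 had none for Cyp2b10. For Cyp2b9 the pairs with overlap were FVB/NJ with DBA/2, FVB/NJ with C57BL/6J, DBA/2 with C57BL/6J, and BALB/c with 129X1/SvJ. Without the fourth 129X1/SvJ pool the counts were 7 and 10. For Cyp2b10 every FVB/NJ pool lay above the 16 other pools and every 129X1/SvJ pool below them, which held for 0.27% and 0.475% of the 10729 elements with no missing value. For the counts of pairs no share over all elements was taken. Nothing is read from these shares or counts, since both genes were picked for their differences between these strains. Set against the mean of the other 4 strains, 129X1/SvJ had a log2 difference of -2.61 in Cyp2b9 and -2.19 in Cyp2b10, and FVB/NJ one of 1.65 and 1.42.

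The reference held RNA of all strains in equal amounts, so the linear ratios of 5 strains should add up to about 5 if pool over reference is the direction of the values. They added up to 5.25 for Cyp2b9 and 5.08 for Cyp2b10, against 9.50 and 8.16 with the sign turned. On this linear scale FVB/NJ carried 37.4% of the summed Cyp2b9 ratio and 35.2% of that of Cyp2b10, and 129X1/SvJ carried 3.52% and 4.77%. BALB/c stood between, with 9.31% and 10.6%. Each strain came from 1 supplier, so strain and supplier cannot be told apart between strains of different suppliers. FVB/NJ and 129X1/SvJ came from the same supplier, so their difference lay within it.

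The 2 elements followed each other over the pools. Pearson's r was 0.949 and Spearman's rho 0.877 over 20 pools, which share the strain, the reference and the array, and r was 0.956 without the fourth 129X1/SvJ pool. Without the 129X1/SvJ pools r was 0.884 and rho 0.785 over 16. Most of this likeness lay between strains: for deviations from the strain mean r was 0.587 over 20 pools and 0.0819 over the 16 pools outside 129X1/SvJ. Cyp2b9 minus Cyp2b10, on the log2 scale, was 0.20 ± 0.47 in C57BL/6J, 0.13 ± 0.37 in FVB/NJ, -0.06 ± 0.18 in DBA/2, -0.14 ± 0.53 in BALB/c and -0.39 ± 0.68 in 129X1/SvJ (SD, n = 4 each). In every strain this difference was smaller than its own SD.

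**Figure D2:**
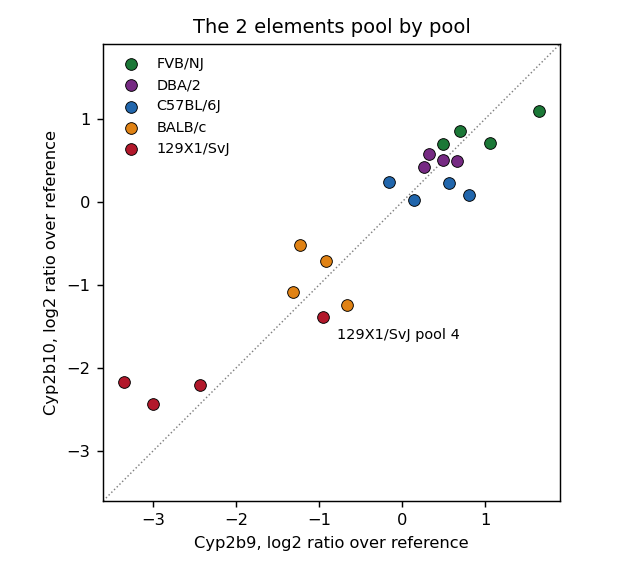
Log2 ratio over reference of Cyp2b9 (x axis) against Cyp2b10 (y axis), with 1 point for each of 20 pools in the colour of its strain and a dotted line where both ratios are equal. The pools lie along the line (Pearson's r 0.949), and 3 of 4 129X1/SvJ pools sit apart at the lower left while pool 4 lies near the BALB/c pools.

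The dye of the pool, which did not choose the genes, was compared within strains. Cyp2b9 read higher with the pool in Cy5 in 5 of 5 strains, by 0.76 in FVB/NJ, 0.69 in C57BL/6J, 0.56 in 129X1/SvJ, 0.48 in BALB/c and 0.28 in DBA/2. In 4 of these strains both Cy5 pools were above both Cy3 pools. The fitted log2 difference was 0.55 (SE 0.20), and it did not pass the threshold of 0.05 (adjusted p = 0.0675 in limma), which 15.9% of all elements passed. Without the first 129X1/SvJ pool it was 0.73 and passed, with an adjusted p of 0.00239. With the dye difference taken out, the SD of Cyp2b9 within strains was 0.48 in place of 0.58. Of 10 pairs of strains 9 then had no overlap, a count given as a description only. Cyp2b10 differed by 0.10 (SE 0.11, adjusted p = 0.574), with Cy5 higher in 3 of 5 strains. The dye was balanced in each strain, so it does not enter the strain means over all pools. It does enter means that leave out a pool, such as those without the fourth 129X1/SvJ pool, which was in Cy5.

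Of the other cytochromes P450, 13 genes were measured, on 16 elements, and 2 of them passed the F test over the 5 strains at an adjusted p of at most 0.1. By comparison 12.4% of the 5820 named genes passed, and 11.3% of all elements. The median distance between the highest and lowest strain mean was 0.26 for these 13 genes and 0.32 for all elements. None of the 13 passed the contrast of 129X1/SvJ with the other strains (adjusted p under 0.05), which 2.74% of all elements passed downwards and 2.96% upwards; 1 of them, Cyp2d9, had an unadjusted p under 0.05 in limma.

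Cyp2d9, a steroid hydroxylase known for higher expression in male than in female mouse liver, was the only other P450 gene with FVB/NJ highest and 129X1/SvJ lowest among those that passed. Its log2 ratios ran from 0.43 to 0.66 in FVB/NJ, from -0.02 to 0.28 in DBA/2, from -0.25 to 0.01 in BALB/c, from -0.47 to -0.06 in C57BL/6J and from -1.12 to 0.44 in 129X1/SvJ. Only the widely spread 129X1/SvJ pools reached those of FVB/NJ. The strain means spanned 0.82 (limma, adjusted p = 0.0760), and FVB/NJ exceeded the mean of the others by 0.66 (SE 0.17, adjusted p = 0.0406). In 20 fits that each left out 1 pool, the F call was lost in 13 and the FVB/NJ call in 15, and without the fourth 129X1/SvJ pool the span was 1.07 (adjusted p = 0.00261). Over 20 pools its r was 0.598 with Cyp2b9 and 0.634 with Cyp2b10.

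Cyp4a12b, a fatty acid hydroxylase, also passed but in another order. It was highest in BALB/c (0.70 ± 0.30) and lowest in C57BL/6J (-0.99 ± 0.92), with a span of 1.68 (adjusted p = 0.0182). A further element of the gene had a span of 1.28 (adjusted p = 0.00536). Cyp4a12b has a close copy, Cyp4a12a, whose RNA these elements may also bind. Its r was -0.06 with Cyp2b9 and -0.14 with Cyp2b10.

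The other 11 genes did not pass. Cyp3a25, of the subfamily that oxidises many drugs and steroids, had a span of 0.46 with FVB/NJ highest (adjusted p = 0.342), whereas a further element of it had 0.80 (adjusted p = 0.0187). Both elements were highest in FVB/NJ and lowest in C57BL/6J, with r 0.650 between them, and differed in size and call. The spans were 0.22 for the steroid hydroxylase Cyp2a4 (adjusted p = 0.978), 0.26 for the ethanol-oxidising Cyp2e1 (0.895), 0.25 for Cyp2j6 (0.713), 0.23 for Cyp4a14 (0.905), 0.28 for Cyp4f13 (0.807) and 0.17 for the pseudogene Cyp4b1-ps2 (0.853). Cyp27a1, Cyp51, Cyp20a1 and Cyp11a1, of other P450 families, had spans of 0.36, 0.34, 0.24 and 0.19.

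**Figure D3:**
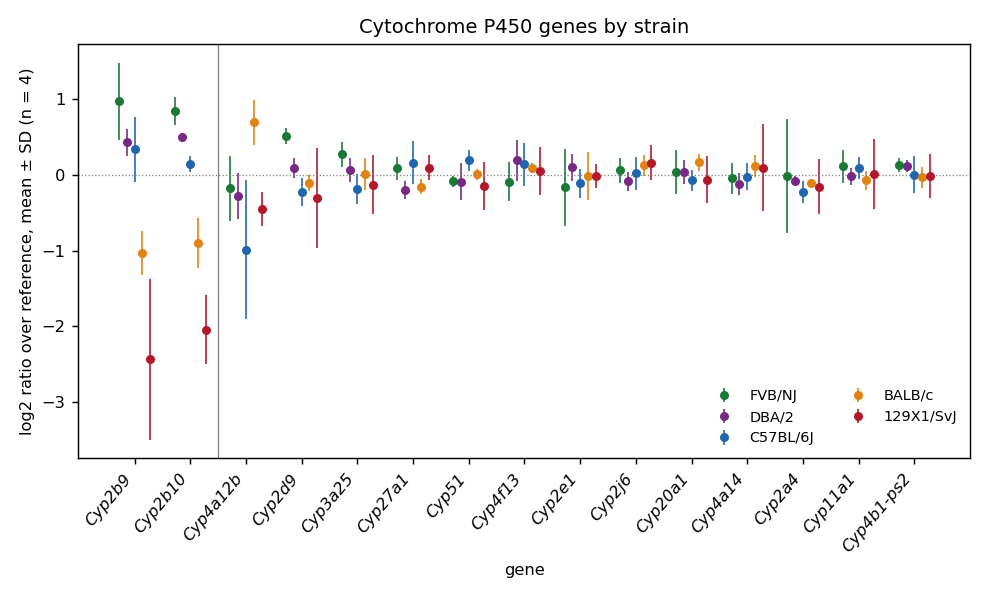
Mean log2 ratio over reference (y axis; bars are 1 SD, n = 4 pools) in 5 strains for Cyp2b9 and Cyp2b10, left of the vertical line, and for the 13 other cytochrome P450 genes measured, ordered by the span of their strain means. The spans are 3.41 and 2.89 for the members, 1.68 for Cyp4a12b, 0.82 for Cyp2d9 and at most 0.46 for the rest.

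Cyp2b9 and Cyp2b10 lie in a run of 17 cytochrome P450 genes on chromosome 7, from Cyp2s1 to Cyp2t4, of which 13 encode protein and 5 of these belong to subfamily 2B. Of the 17, 3 were measured: the members and Cyp2a4, the gene next after Cyp2b9. The log2 ratios of Cyp2a4 averaged -0.01 in FVB/NJ and -0.15 in 129X1/SvJ. Of the 5 nearest measured genes on each side, 2 of 10 passed the F test. B9d2, a gene of the ciliary transition zone, was highest in 129X1/SvJ (span 0.53, adjusted p = 0.0102). Ltbp4, which binds latent TGF-beta, was lowest in BALB/c and highest in 129X1/SvJ (span 0.85, adjusted p = 0.0332), and did not pass without the second or the third BALB/c pool (adjusted p = 0.138 and 0.119). Neither had the order of the members, with r from -0.46 to 0.12 over 20 pools. Elements numbered next to the members in the array data, of Fgf14, Ctf1, Cbr1 and Serpina12, had r from -0.22 to 0.19 with them. For deviations from the strain mean r ran from 0.01 to 0.50. Whether these elements were printed beside the members on the slide was not checked.

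Genes of foreign compound metabolism were counted in 5 lists, in which 12 of 49 measured genes passed the F test (24.5%, beside 12.4% of all named genes). Among regulators 1 of 13 passed, Rxrg, a retinoid X receptor. It was highest in C57BL/6J (0.62 ± 0.16) and similarly low in FVB/NJ (-0.34 ± 0.21) and 129X1/SvJ (-0.34 ± 0.53), with a span of 0.96 (adjusted p = 0.00562). The receptor genes Nr1i3 and Nr1i2, and Por, which encodes the reductase that serves P450 enzymes of the endoplasmic reticulum, were not analysed here. None of 7 genes of haem synthesis and electron transfer passed, while 2 had an unadjusted p under 0.05 in the F test. Of all 5820 named genes 1284 had such a p, which is the background for this count and for those of other lists below.

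Other oxidising and hydrolysing enzymes passed in 3 of 14 genes, and none of the 3 had the order of the members. The carboxylesterase gene Ces1e was low in both extreme strains, with -0.83 ± 0.22 in FVB/NJ and -0.77 ± 0.18 in 129X1/SvJ, and highest in BALB/c (0.52 ± 0.08, adjusted p = 1.28e-07). The alcohol dehydrogenase gene Adh1 was highest in FVB/NJ (0.46 ± 0.19) and lowest in DBA/2 (-0.41 ± 0.16, adjusted p = 6.66e-04). The retinal dehydrogenase gene Aldh1a1 was highest in C57BL/6J and lowest in BALB/c (span 0.81, adjusted p = 0.00948).

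Of the conjugating enzymes 8 of 13 genes passed. Mgst1, a microsomal glutathione transferase, was high in FVB/NJ (1.08 ± 0.22) and in 129X1/SvJ (0.85 ± 0.25) and low in DBA/2, C57BL/6J and BALB/c (-1.60 ± 0.11, -2.11 ± 0.50 and -2.18 ± 0.15; adjusted p = 7.22e-11). Gsto1, a glutathione transferase of class omega, was highest in 129X1/SvJ (0.95 ± 0.24) and lowest in DBA/2 (-1.37 ± 0.11, adjusted p = 4.07e-10). Gstm2 was highest in BALB/c (span 0.85, adjusted p = 0.00278), and Ugdh, which makes UDP-glucuronate, in DBA/2 (span 0.82, adjusted p = 0.0544).

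Gstz1, the maleylacetoacetate isomerase, was the only one of these 8 with the strain order of the extremes, FVB/NJ (0.23 ± 0.09) highest and 129X1/SvJ (-0.25 ± 0.05) lowest (span 0.47, adjusted p = 0.0114). In FVB/NJ it exceeded the other strains by 0.32 (SE 0.08, adjusted p = 0.0245 in limma). In 129X1/SvJ it lay below them, with a log2 difference of -0.27 (SE 0.08, adjusted p = 0.0405 in limma). These contrasts of Gstz1 were not rerun without single pools or with other processing. The remaining 3 were Gstk1, Gstt1 and Mgst3. Of the 8 calls of the F test, 4 depended on single pools or on the processing. The Ugdh call was lost without pool 1, 2 or 4 of DBA/2 (adjusted p = 0.132, 0.153 and 0.152), that of Gstk1 without pool 2 or 3 of BALB/c (0.107 and 0.127), and that of Gstt1 in 16 of 20 such fits and with the pool number as a block (0.107). Mgst3 did not pass with its elements averaged by gene (0.135). Neither of 2 steroid enzyme genes passed, while 1 had an unadjusted p under 0.05. Over all 5 lists 3 genes were higher and 2 lower in 129X1/SvJ than in the other strains, and 3 were higher and 2 lower in FVB/NJ, beside 1.22% of all elements higher and 1.34% lower in FVB/NJ.

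The tissue carried prostate markers on the array, Pbsn, Sbp and Azgp1 among 8 measured luminal genes, though a ratio to the reference does not give their level. In the contrast of 129X1/SvJ with the others, Azgp1 was higher by 0.68 and Sbp, which encodes spermine binding protein, lower (-0.86), so the luminal list did not move one way. Its mean log2 ratio per pool ran from -0.19 to 0.00 in 129X1/SvJ, from -0.47 to -0.02 in FVB/NJ and from 0.07 to 0.39 in C57BL/6J. Over the 8 luminal genes r with the members went both ways. It ran from -0.442 (Cd24a) to 0.685 (Sbp) with Cyp2b9. With Cyp2b10 it ran from -0.554 (Cd24a) to 0.591 (Sbp). Markers of hepatocytes, where subfamily 2B is known best, were Fgb and Serpina1c, 2 of 10 listed. Neither passed the F test, while 1 had an unadjusted p under 0.05, and their mean ran from -0.50 to -0.12 in 129X1/SvJ and from -0.19 to 0.13 in FVB/NJ.

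Fat and seminal vesicle markers differed between strains as well. Of 3 adipose genes 2 passed, with Fabp4 higher by 0.48 in 129X1/SvJ, and their mean ran from -0.05 to 0.44 there, from -0.21 to -0.08 in FVB/NJ and from -0.59 to -0.01 in C57BL/6J. Of 7 seminal vesicle genes 3 passed. Their mean ran from 0.44 to 1.11 in BALB/c, from -2.76 to -2.22 in DBA/2, from -2.82 to 0.10 in 129X1/SvJ, from -3.07 to -0.47 in FVB/NJ and from -3.11 to 0.33 in C57BL/6J. In BALB/c, where this list was highest, the means of both members were below the reference and above those in 129X1/SvJ. None of the 6 smooth muscle genes, 4 endothelial genes or the 1 basal epithelial gene passed, while 2 of the endothelial genes had an unadjusted p under 0.05, and 1 of 6 fibroblast genes, 1 of 2 leukocyte genes and 1 of 6 skeletal muscle genes did. The part of these cell types in the levels of Cyp2b9 and Cyp2b10 was not tested.

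The genes whose profile over 20 pools was most like that of each member were named by Pearson's r among 5819 genes. Over the 20 pools each member was the closest gene to the other. Cyp2b9 was followed by Rnaset2b (r 0.848), Tmem64 (0.842), Miga1 (0.802) and AI428479 (0.802). Cyp2b10 was followed by Tmem64 (0.873), Chm (0.821), Gstz1 (0.817) and Tulp2 (0.799). Only 5 genes exceeded an r of 0.8 with Cyp2b9 and 4 with Cyp2b10, whereas 15 and 12 lay under -0.8.

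Tmem64, a transmembrane protein gene, and Chm, which encodes a Rab escort protein, had a high r also without 129X1/SvJ. Tmem64 averaged 0.43 ± 0.29 in FVB/NJ, 0.57 ± 0.12 in DBA/2, 0.58 ± 0.19 in C57BL/6J, -0.76 ± 0.38 in BALB/c and -1.34 ± 0.32 in 129X1/SvJ. Chm averaged 0.59 ± 0.14, 0.45 ± 0.07, 0.42 ± 0.18, -0.93 ± 0.10 and -1.41 ± 0.86 in the same order. Without the fourth 129X1/SvJ pool r was 0.903 for Tmem64 with Cyp2b9 and 0.903 for Chm with Cyp2b10. Without 129X1/SvJ, over 16 pools, r was 0.858 for Tmem64 with Cyp2b9 and 0.918 for Chm with Cyp2b10. The members had r of 0.884 with each other there, so Chm was then closer to Cyp2b10 than Cyp2b9 was. The r of Tulp2 with Cyp2b10 went to 0.330 over these 16 pools and that of Rnaset2b with Cyp2b9 to 0.575.

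The most opposite profiles were those of Cd300c2 (r -0.863), Pigf (-0.851) and Acad10 (-0.848) for Cyp2b9, and of Mtarc2 (-0.886), Pigf (-0.865) and Cd300c2 (-0.840) for Cyp2b10. Pigf, which acts in the synthesis of GPI anchors, averaged 0.61 ± 0.23 in 129X1/SvJ and 0.40 ± 0.19 in BALB/c, and -0.42 ± 0.32, -0.43 ± 0.17 and -0.52 ± 0.15 in FVB/NJ, C57BL/6J and DBA/2. It was thus high in the strains where both members were below the reference. These correlations describe 20 pools in 5 strains and carry no test.

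**Figure D4:**
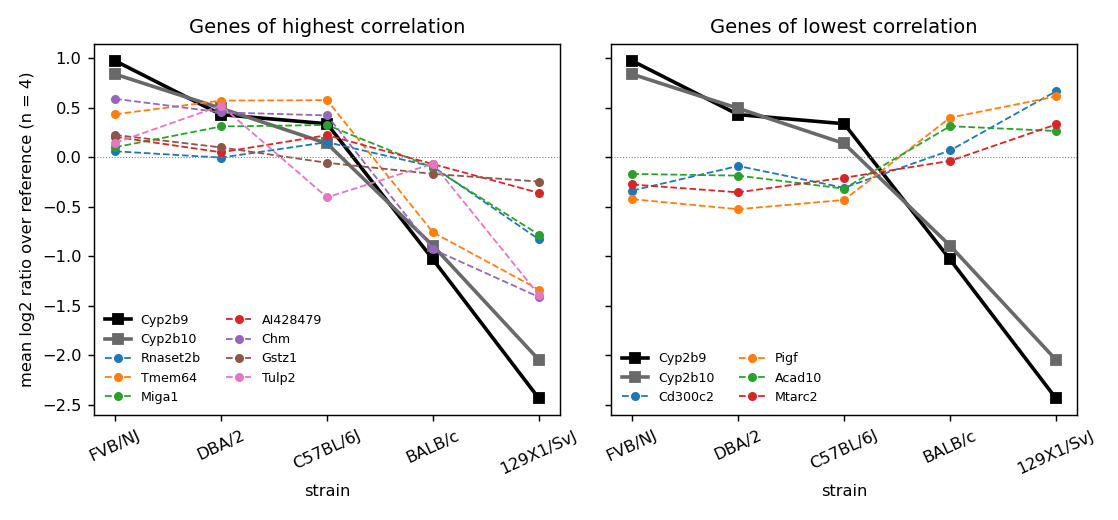
Mean log2 ratio over reference (y axis, n = 4 pools per strain) in 5 strains (x axis) for Cyp2b9 and Cyp2b10 (thick lines, squares) with the genes of highest (left) and lowest (right) Pearson's r. Tmem64 and Chm fall from C57BL/6J to BALB/c and 129X1/SvJ as the members do, while Pigf rises to 0.40 in BALB/c and 0.61 in 129X1/SvJ.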

How the data were processed

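Prostate RNA of 20 pools (4 per strain, 5 strains) was measured on cDNA arrays with 2 colours, all of 1 print batch. The authors scanned the arrays with a GenePix scanner, took the median background off the median signal of each spot, and smoothed the ratios within print tips by local regression. What they deposited are log2 ratios, pool over reference, on 11552 elements, with 2.89% missing; array medians ran from -0.01 to 0.02. Intensities were not used here, so the signal above background is unknown, and precision rests on 4 pools per strain. Groups and dyes came from the labels, and no 2 arrays were alike (highest r 0.702).

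Tests took the 11159 elements that lacked 3 values or fewer and had 2 or more per strain, which left out 393. Symbols came from the array annotation: 8050 elements had 1 symbol, 672 several, from which no gene was named, and 2830 were unlisted. Of the elements with 1 symbol, 7880 matched the gene table of GRCm38.p6 by gene identifier. Other genes with several elements were represented by the one with the fewest missing values. Whether elements repeat 1 clone was not known.

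A moderated F test over 5 strain means (limma 3.58.1, R 4.3.3; adjusted p at most 0.1), contrasts of 1 strain with the mean of the other 4 and a dye term (adjusted p under 0.05) used all 20 arrays and the adjustment of Benjamini and Hochberg over all elements. The F test replaced the multiclass SAM procedure of the study. On 11159 simulated elements, the F test found 89 of 100 differences of 1 on the log2 scale. The contrast of 129X1/SvJ found 94 of 100, and the dye term 72 of 100 of 0.5. Of all calls, 6.97%, 2.54% and 2.33% were false. The simulated noise was normal, with the same SD in all strains for each element. It thus lacked the wider spread of the 129X1/SvJ arrays, so these counts do not give the recovery on the real arrays. Promoters were aligned with Biopython 1.88. Pool numbers were not taken as pairing the pools, since the labels name no pairing. Alternatives were other scalings, 1 dye alone, filters, elements averaged by gene, no moderation, a block for the pool number and leaving out each pool.

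The members and gene lists were chosen with earlier results of these data known, so members have no test between strains. Beside the members, genes were named as the other P450 genes of families 1 to 4 or past the F test, up to 4 genes per list with the widest span among those past it, and for each member the 5 highest and 3 lowest r. Chromosome neighbours, Gstz1, markers and P450 genes of other families named beyond this rule were chosen after their values were seen.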

Additional observations from a re-analysis of the deposited data

Results flagged for a closer look

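Values of single pools that lay far from the other 3 of their strain were looked for in 30 named genes over 5 strains, with the gap to the nearest pool as a share of the strain's whole range (above Dixon's critical value for 4 samples). Of 150 groups 11 stood out, and chance flags about 1 in 20; none was of Cyp2b9 or Cyp2b10. In 129X1/SvJ the fourth pool stood apart for Chm (-2.70, nearest -1.06), Ugdh (-1.08, nearest -0.15) and Cyp2e1 (0.22, nearest -0.06), and the first pool for Cyp4f13 (0.52, nearest -0.07). In DBA/2 the first pool stood apart for Cyp4f13 (0.60, nearest 0.08) and Cyp4a12b (-0.73, nearest -0.17), and the fourth for Miga1 (0.062, nearest 0.36). In FVB/NJ the third pool was high for Cyp4a12b (0.45, nearest -0.34) and the second for Adh1 (0.74, nearest 0.40). In BALB/c the second pool was high for Ces1e (0.65, nearest 0.50) and the third low for Adh1 (-0.53, nearest -0.22). All values are log2 ratios over the reference. For Chm the r with Cyp2b10 was 0.821 with that pool and 0.903 without it.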

How the results depend on the processing

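Cyp2b10 kept its order of strains in 24 of 24 alternatives and Cyp2b9 in 22 of 24. For Cyp2b10 no pools of different strains overlapped, so alternatives that only left out arrays could not change its order. Only scaling to the same spread and quantile normalization could have done so. DBA/2 and C57BL/6J changed places for Cyp2b9 with Cy5 arrays alone and without the fourth C57BL/6J pool. FVB/NJ stayed highest and 129X1/SvJ lowest in all 24 for both. Scaling arrays to the same spread, or quantile normalization, brought the 129X1/SvJ difference from the other strains to -1.96 or -1.68 in Cyp2b9 and to -1.63 or -1.43 in Cyp2b10, and the span of strain means to 2.78 or 2.61 and to 2.35 or 2.37. In Cyp2b10 that difference was -2.46 with Cy3 arrays and -1.92 with Cy5 arrays. The dye difference of Cyp2b10 turned to -0.21 after quantile normalization (adjusted p = 0.344). The causes were not tested.

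Leaving out 1 pool at a time, the 129X1/SvJ difference ran from -3.11 to -2.31 in Cyp2b9 and from -2.41 to -2.06 in Cyp2b10, that of FVB/NJ from 1.42 to 1.81 and from 1.33 to 1.47, the span from 3.10 to 3.90 and from 2.76 to 3.11, and the dye difference from 0.38 to 0.73 and from 0.02 to 0.16. The other P450 genes past the F test then numbered 1 to 3, the list genes 10 to 15 and all elements 1024 to 1725, the last without the fourth 129X1/SvJ pool. The P450 count was 1 without moderation, where Cyp2d9 had an adjusted p of 0.132, and 3 with elements averaged by gene, where Cyp3a25 passed (0.0507), and without the first C57BL/6J pool, where Cyp27a1 passed (0.0936). Arrays weighted by limma, tried after seeing the data, gave 2146 elements, 2 P450 genes and 17 list genes.

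With the pool number as a block, 2 P450 genes, 15 list genes and 1431 elements passed. The members' differences were again -2.61, 1.65, -2.19 and 1.42, which such a block cannot move, as every strain held every number. Pools with the same number deviated together in 22 of 40 pairs of arrays (r over 0.1, range -0.339 to 0.435). Their median r was 0.213, against -0.054 for pools with other numbers in other strains. In every strain but 129X1/SvJ, pools 1 and 4 were in Cy3 and pools 2 and 3 in Cy5, so number went with dye. The source of this likeness was not tested. The labels name no pairing of pools, so the main tests held no block.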
